A study of Capitella teleta with 10 samples.

Results

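A small set of *Capitella teleta* transcript models was all but undetected in the 64-cell embryo, present by the gastrula and still present in the stage 7 larva. It comprised 73 of the 41221 transcript models measured, which are here called features. The 73 members were chosen by their measured values. Each had a normalized read count of at most 2 in both 64-cell libraries and of at least 50 in all 8 libraries of the gastrula, stage 4tt, stage 5 and stage 7. An upper limit of 200 members did not come into play. The low level before the gastrula and the presence afterwards are therefore given as a description and were not tested.

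*C. teleta* is a marine segmented worm with a larva that lives on yolk. Messenger RNA of intact animals, untreated and of no stated genotype, was sequenced in bulk with 2 libraries for each of 5 stages. The stages, in order of development, were the 64-cell embryo, the gastrula and stages 4tt, 5 and 7. Stage 4tt is larval in the methods, whereas its label calls it an embryo. Animals were taken from broods of a laboratory culture, and no statement ties replicates of the same number to one brood. The study calls its 2 replicates biological. P values measure the spread between these samples, which may be technical in part. In whole animals, more cells with a transcript and more of it per cell cannot be told apart.

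As background, the earliest animal embryo runs on RNA laid down in the egg by the mother, and its own genome takes over transcription during cleavage and gastrulation. During gastrulation the germ layers are set apart, and the trunk of *C. teleta* starts to form soon afterwards. Transcripts that first appear in this window and persist can come from a gene that was silent before, or from a new transcript form (another promoter, splice or end) of a gene that was already active. Each annotated model has an identifier of its own, with a gene number shared by the models of a gene and a suffix for the model. Transcripts can therefore be counted by whether another annotated model of their gene was detected before the gastrula. That count does not separate silent genes from active ones, since early RNA of another model may come from the mother. It also misses forms that were not annotated. Whether a gene was silent or active before the gastrula was not tested.

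The deposited values are read counts that the authors normalized across stages, and library totals ranged from 32883200 to 55846800. Totals were lower at later stages, so levels and shares of a library are given separately. In the files used here no identifier of a member is paired with a gene name, and 0 of the 73 matched a table of 31977 genes of an older assembly of the species. Members are therefore described by their identifiers, their course over time and the other models of their gene, and no role or sequence is given.

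At the 64-cell stage, 58 of the 73 members were listed at 0 in both libraries, 14 in one library, and 1 was above 0 in both. The 16 nonzero values lay between 0.799 and 1.87. The lowest nonzero values of any feature in these libraries were 0.808 and 0.784, so the 12 member values under 1 were close to the smallest values these libraries held. A value of 0 was common at this stage, with 7357 features (17.8%) at 0 in both libraries. At most 2 at the 64-cell stage and at least 50 in both gastrula libraries held for 168 features, of which the 73 members (43.5%) stayed at 50 or more. The other 95 went below 50 in at least 1 later library, 56 of them already at stage 4tt, 12 first at stage 5 and 27 first at stage 7. Onset with the same thresholds between the gastrula and stage 4tt, and presence in all 6 libraries afterwards, was found for 7 features. Those had to be at or below 2 in the gastrula libraries as well as the 64-cell ones. Their count and the 73 are therefore not alike in strictness, and nothing is read from the difference.

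The highest 64-cell values among members were 1.87, 1.83 and 1.77, and the nearest features outside had 2.29, 2.40 and 2.43. The smallest later values among members were 50.8, 51.0 and 51.3, and the nearest features outside had 49.2 each.

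**Figure D1:**
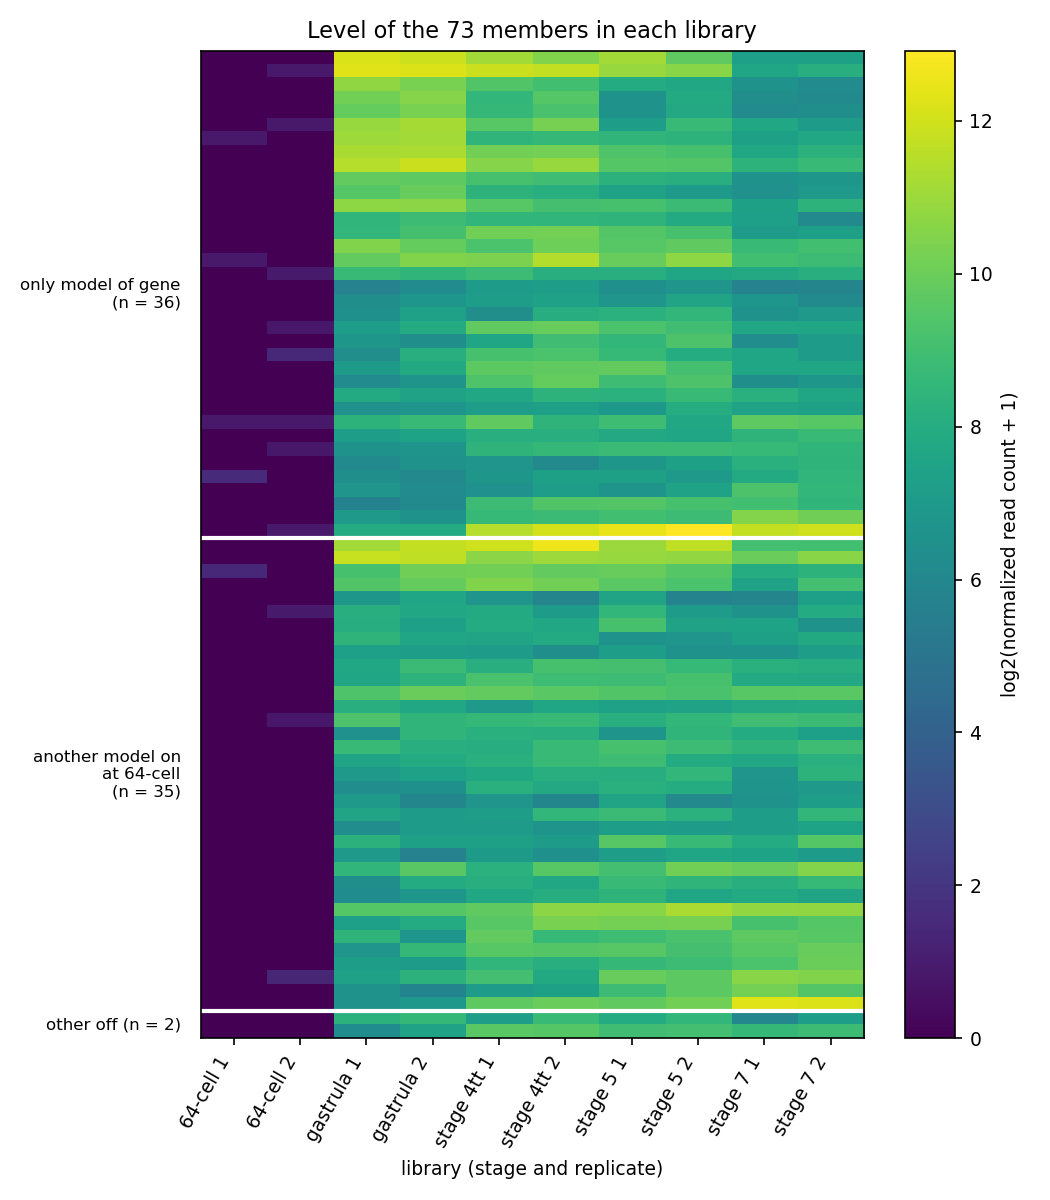
Each row is one of the 73 members and each column a library, with the colour giving log2(normalized read count + 1). Rows are split by whether the member is the only model of its gene (36), has another model above 2 at the 64-cell stage (35) or has another model that was not (2), and are ordered by fold change within each block. The 2 64-cell columns are at or near 0 and all later columns are filled, with several of the brightest gastrula rows of the upper block fading by stage 7.

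From the gastrula on, the members were moderately abundant. Their median was 212 and 244 normalized counts in the 2 gastrula libraries, 359.6 and 420.0 in stage 4tt, 447 and 400.5 in stage 5 and 220.1 and 286 in stage 7. The median member exceeded 66.9% to 75.3% of all features of a later library. Their levels were spread widely, with means over the 8 later libraries between 88.6 and 3559. The 5 most abundant members of a later library held 31.2% to 39.8% of the members' sum.

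The summed level of the members was 48667 ± 3103 normalized counts at the gastrula, 49970 ± 5146 in stage 4tt, 45012 ± 1478 in stage 5 and 35143 ± 2218 in stage 7 (SD, n = 2 each). Against a sum of 8.56 ± 3.29 at the 64-cell stage, all 4 were set high by the choice of members. As a share of the library, the members held 0.111% ± 0.0110 at the gastrula, 0.133% ± 0.0258 in stage 4tt, 0.121% ± 0.0167 in stage 5 and 0.105% ± 0.00959 in stage 7 (SD, n = 2 each). The sum at stage 7 was below all 6 libraries of the earlier 3 stages, while the shares of neighbouring stages overlapped between libraries.

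The members were then compared among the later stages, which the choice of members did not use beyond a minimum of 50. The minimum does limit how far a member could fall, since one with a gastrula mean below 100 could not halve, and 59 of the 73 were at or above 100. Each contrast came from a limma fit over all 35526 features that passed a filter on low values. A feature was called with a log2 fold change above 1 in size on the log2(value + 1) scale and a Benjamini-Hochberg adjusted p under 0.05. The share of all features tested that were called is given as the background, as is the share among the 14675 features that had at least 50 in all 8 later libraries, members included. The median standard error of a fold change was 0.44 for the members, 0.59 over all features tested and 0.25 among those 14675. The shares called were thus not reached at like precision.

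Between the gastrula and stage 7 the members moved in both directions. At stage 7, 17 of the 73 were called higher than at the gastrula, against a background of 18.9% of all features tested and 13.9% of those at 50 or more. At the same time 18 were called lower, against 12.2% of all features and 20.7% of those at 50 or more. As shares, 23.3% of the members rose and 24.7% fell. The median log2 fold change of the members was 0.07, beside 0.11 over all features tested, and their median size of change was 1.2, beside 1.01. The 2 libraries of stage 7 were above both of the gastrula for 25 members and below both for 22, and overlapped for 26. Of all features, 37.3% were above and 31.5% below. Of the 14675 features at 50 or more, 4632 were above and 7192 below. The number of rises was 11 without replicate 2 of stage 7.

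The members that fell were among the more abundant at the gastrula. The 18 that fell had a median of 167 normalized counts at stage 7, against 1585 at the gastrula. The 17 that rose had a median of 803 at stage 7, against 126 at the gastrula. Of the 14 members with a gastrula mean of at least 1000, 13 fell and 0 rose, beside 34.9% lower and 2.97% higher among features at 50 or more with such a mean. Of the 30 with a gastrula mean under 200, 11 rose and 0 fell, beside 36.3% higher and 1.21% lower. Part of this ordering is fixed, since the gastrula mean is also the base of the fold change and the minimum of 50 leaves low members little room to fall.

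The largest falls were in CTELG00000028024.1 and CTELG00000019494.1, each the only model of its gene. CTELG00000028024.1 had 4576 and 3914 normalized counts in the gastrula libraries, 2213 and 1437 in stage 4tt, 2201 and 869 in stage 5 and 154 and 162 in stage 7. Its replicates overlapped between stages 4tt and 5, and its stage 7 libraries lay below all others. The log2 fold change of stage 7 over the gastrula was -4.73 (SE 0.41, adjusted p = 3.99e-05 by limma), and the fall from stage 5 to stage 7 alone was called (log2 fold change -3.12, adjusted p = 0.00463).

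CTELG00000019494.1 had 4965 and 4786 normalized counts at the gastrula, 3731 and 3372 in stage 4tt, 1916 and 1590 in stage 5 and 200.3 and 274 in stage 7. The 2 libraries of each stage lay below both libraries of the stage before. Its log2 fold change of stage 7 over the gastrula was -4.37 (SE 0.30, adjusted p = 1.46e-05 by limma). Only the last step passed limma's test by itself (log2 fold change -2.89, adjusted p = 0.00202).

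The largest rises were in CTELG00000006130.2 and CTELG00000016413.1. CTELG00000006130.2 had 99.0 and 118 normalized counts at the gastrula, 832 and 988 in stage 4tt, 874 and 1156 in stage 5 and 5049 and 4732 in stage 7. It was not called between stages 4tt and 5, whose libraries overlapped, and rose on both sides of that interval. The rise to stage 4tt had a log2 fold change of 3.06 and the rise from stage 5 to stage 7 one of 2.28 (adjusted p = 0.000138 and 0.00251 by limma). Over the whole interval the change was 5.49 on the log2 scale (limma, SE 0.25, adjusted p = 2.92e-06).

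CTELG00000016413.1, the only model of its gene, had 248 and 243 normalized counts at the gastrula, 2886 and 4128 in stage 4tt, 5768 and 7712 in stage 5 and 3448 and 4040 in stage 7. It was highest at stage 5, where both libraries exceeded all others. Only its rise from the gastrula to stage 4tt was called among the single steps (log2 fold change 3.81, adjusted p = 0.000136 by limma). The log2 fold change of stage 7 over the gastrula was 3.92 (SE 0.31, adjusted p = 2.8e-05 by limma).

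**Figure D2:**
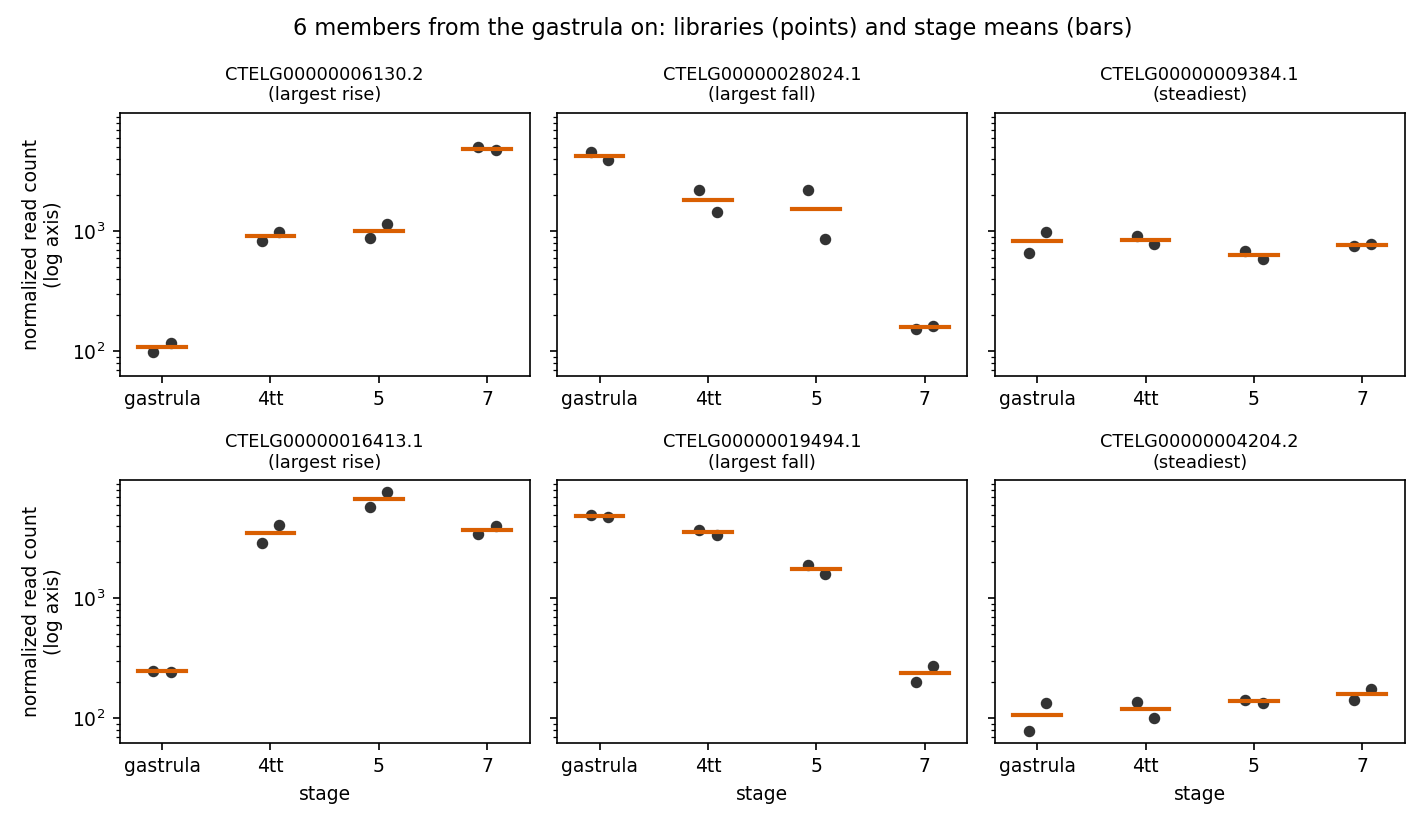
Normalized read counts (log axis) of 6 members at the gastrula and stages 4tt, 5 and 7, with points for the 2 libraries and a bar for their mean. The largest rises reach 4732 or more and 3448 or more at stage 7, the largest falls end at 162 or less and 274 or less, and the steadiest members stay within a factor of 1.69 and 2.26 over all 8 libraries.

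The steadiest members over the 8 later libraries, by coefficient of variation, were CTELG00000009384.1 (16.9%) and CTELG00000004204.2 (22.6%). CTELG00000009384.1 had 664 and 984 normalized counts at the gastrula, 907 and 785 in stage 4tt, 686 and 583 in stage 5 and 751 and 779 in stage 7. CTELG00000004204.2 had 78.4 and 133 at the gastrula, 136 and 101 in stage 4tt, 143 and 133 in stage 5 and 142 and 177 in stage 7. Neither passed limma's F-test for a change at any step (adjusted p = 0.592 and 0.656). Both were picked for small variation over the same 8 libraries, so this outcome was largely set by the choice and adds no support. The ratio of the highest to the lowest later library had a median of 5.62 over the members, against 2.605 over the features at 50 or more. It was above 10 for 19 members (26.0%), against 5.40% of those features. Most of these were the only model of their gene, with 15 of 36 (41.7%) above 10. Of the 35 with another model above 2 at the 64-cell stage, 3 (8.57%) were above 10.

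The single steps dated only part of the changes between the gastrula and stage 7. From the gastrula to stage 4tt, 14 members rose and 5 fell, against backgrounds of 10.7% and 5.96% of all features, or 10.1% and 9.88% of those at 50 or more. As shares, 19.2% of the members rose and 6.85% fell, and their median log2 fold change was 0.44, beside -0.02 over all features. The 2 libraries of stage 4tt were above both of the gastrula for 30 members and below both for 17, against 27.4% and 29.3% of all features. Of the 14675 features at 50 or more, 4097 were above and 6397 below. The 5 falls numbered 1 or 2 when either library of the gastrula or of stage 4tt was left out.

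From stage 4tt to stage 5, 0 members were called in either direction by limma, against backgrounds of 0.327% higher and 0.234% lower of all features, or 0.204% and 0.348% of those at 50 or more. With the same minimum fold change and p under 0.05 before adjustment, 3 members had higher and 8 lower values, beside 4.57% and 3.08% of all features, or 1.43% and 1.79% of those at 50 or more. The 2 libraries of stage 5 were above both of stage 4tt for 12 members and below both for 22, against 21.7% and 17.9% of all features, and overlapped for 39. Of the 14675 features at 50 or more, 2817 were above and 3666 below.

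From stage 5 to stage 7, 2 members rose and 10 fell, against backgrounds of 3.81% and 2.08% of all features, or 3.03% and 3.26% of those at 50 or more. The median log2 fold change of the members was -0.57, beside 0.05 over all features. The 2 libraries of stage 7 were above both of stage 5 for 15 members and below both for 35, against 28.9% and 22.9% of all features. Of the 14675 features at 50 or more, 3790 were above and 4909 below. The calls of this step depended on single libraries. The 2 rises numbered 0 without replicate 1 of stage 7 and 1 without its replicate 2 or without either library of stage 5. The falls numbered 1 without replicate 1 of stage 7, 6 without replicate 2 of stage 7, 3 without replicate 1 of stage 5 and 6 without replicate 2 of stage 5.

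Taken over the 3 steps, 49 members had no call, 17 had 1 and 7 had 2. Of the features at 50 or more, 21.3% had 1 call and 2.65% had 2. Not all of the 49 were unchanged, since some were called between the gastrula and stage 7. Only 33 members had neither a call at a step nor one over the whole interval. Of these, 30 did not pass the F-test either. A rise at stage 4tt followed by a fall at stage 7 was seen in 3 members, CTELG00000026937.1, CTELG00000006122.1 and CTELG00000010071.1, named after their values were seen, beside 1.06% of the features at 50 or more. CTELG00000010071.1 had 75.2 and 100.03 normalized counts at the gastrula, 658 and 945 in stage 4tt, 479 and 637 in stage 5 and 86.8 and 114 in stage 7. Its gastrula and stage 7 libraries overlapped, and the middle stages lay above both. A change at any of the 3 steps passed limma's F-test in 38 members (52.1%), against a background of 37.8% of all features and 53.3% of those at 50 or more.

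The highest stage mean was at the gastrula in 22 members, at stage 4tt in 16, at stage 5 in 21 and at stage 7 in 14. Among the features at 50 or more, the same stages held the highest mean of 46.4%, 15.0%, 15.0% and 23.5%. The lowest mean of a member was at the gastrula in 31 and at stage 7 in 30, and at stages 4tt and 5 in 7 and 5. Single libraries gave less certain dates. The replicate 1 and the replicate 2 libraries agreed on the stage of the maximum for 39 of the 73 members.

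The choice of members did not use the other models of their genes, and these divided the members into groups of similar size. All 73 members came from different genes. For 36 members (49.3%) the member was the only model of its gene, and for 37 (50.7%) the gene had other models. Such genes hold 15.4% of all features, 23.8% of the features at 50 or more in all later libraries and 7.01% of the features at or below 2 in both 64-cell libraries. Among the 95 features that were on at the gastrula but not kept, 31 (32.6%) belonged to genes with several models.

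In 35 of the 37, another model of the gene was above 2 normalized counts in a 64-cell library, while the member was at or below 2 in both. The number was 36 with a limit of 0 and 34 with a limit of 10. The summed other models had a 64-cell mean between 5.66 and 5809, with a median of 126. In the remaining 38 genes, all models together summed to at most 2 in both 64-cell libraries. The set therefore held 38 genes with no model above the limit at the 64-cell stage, and 35 genes in which the member was below it while another model was above.

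For the 35 genes with an earlier model, the level of the whole gene was compared between the gastrula and the 64-cell stage as a description, since the member is part of the sum. The sum over all models was more than 2-fold higher at the gastrula in 27 genes, more than 2-fold lower in 5 and within 2-fold in 3. Over all 2734 genes with several models of which 1 was above 2 at the 64-cell stage, 30.1% were more than 2-fold higher and 31.5% more than 2-fold lower. Those genes were not held to a minimum at the gastrula, so nothing is read from the difference. The other models by themselves were more than 2-fold higher at the gastrula in 22 of the 35 genes and more than 2-fold lower in 7. No share over other genes was computed for the other models by themselves, so nothing is read from these counts either.

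**Figure D3:**
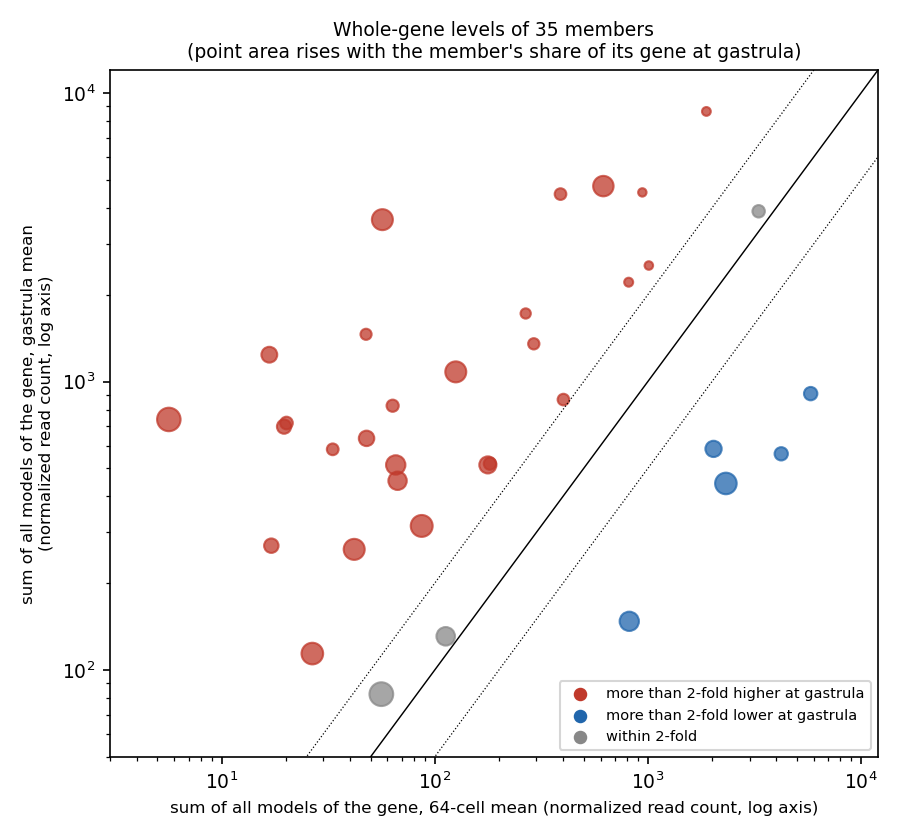
Each point is one of the 35 genes with a model above 2 at the 64-cell stage, with the 64-cell mean of all its models on the horizontal axis and the gastrula mean on the vertical axis (normalized read counts, log axes). The solid line marks equal levels and the dotted lines 2-fold, point area rises with the share of the gene held by the member at the gastrula, and 27 genes lie above the upper dotted line and 5 below the lower one.

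The 5 genes with a lower sum at the gastrula were those of CTELG00000020568.1, CTELG00000023864.3, CTELG00000009118.1, CTELG00000007793.2 and CTELG00000017085.3, named after their values were seen. In each, the model that was most abundant in the 64-cell embryo was lower in both gastrula libraries, where the member was present. For CTELG00000007793, model 1 showed 52.6 and 72.0 normalized counts at the gastrula, against 2256 and 1864 in the 64-cell embryo, and it was listed at 0 in both stage 7 libraries. The member, model 2, was listed at 0 in both 64-cell libraries and had 435 and 284 at the gastrula and 338 and 476 at stage 7. It held 81.1% of its gene at the gastrula and 99.7% at stage 7.

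For CTELG00000009118, model 2 showed 37.1 and 71.7 normalized counts at the gastrula, against 851 and 787 in the 64-cell embryo. The member, model 1, had 126 and 60.8 at the gastrula, so the libraries of the models overlapped there, and its share of the gene was 63.1% at the gastrula and 70.2% at stage 7. For CTELG00000023864, model 2 had 5930 and 5637 at the 64-cell stage, 459 and 805 at the gastrula and 2068 and 1690.0 at stage 7. The member, model 3, had 316 and 158 at the gastrula and 248 and 738 at stage 7. There the stage 7 libraries of the earlier model lay above its gastrula libraries, and the member held 19.3% of the gene at stage 7.

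CTELG00000006130 holds the largest rise described above. Its model 1 had 139 and 225 normalized counts in the 64-cell embryo, 418 and 404 in the gastrula and 1990.2 and 1434.5 in the stage 7 larva. The member held 20.8% of the gene at the gastrula and 74.1% at stage 7. Both models were thus higher at stage 7 than at the gastrula in every library, and the stage mean of the member was the larger from stage 4tt on.

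**Figure D4:**
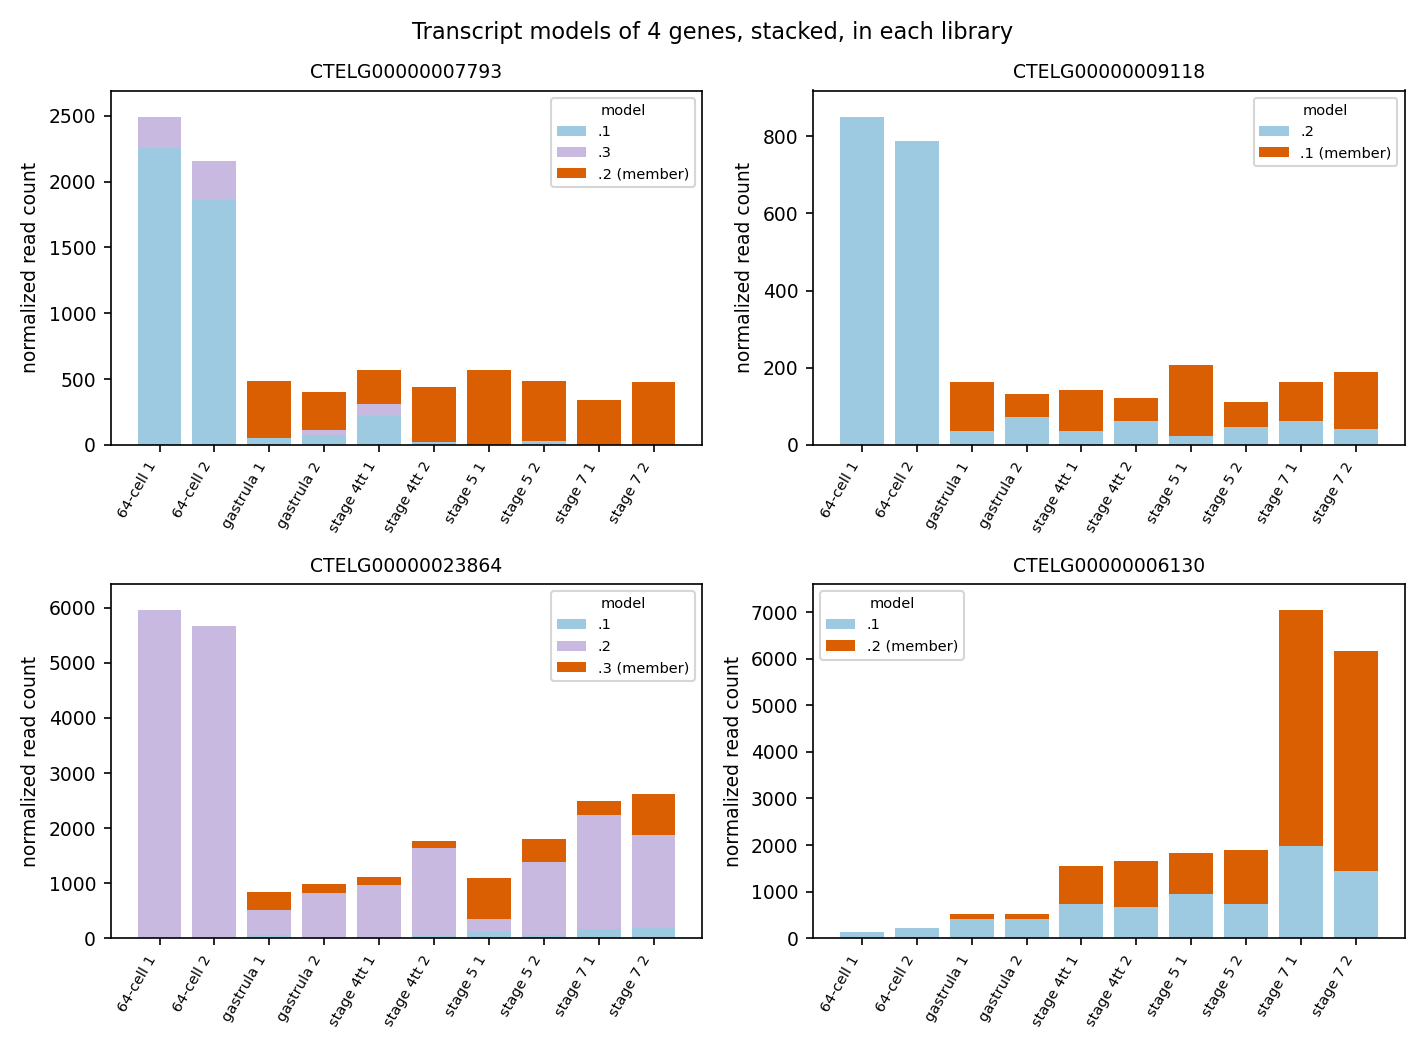
Stacked normalized read counts of all models of 4 genes in each of the 10 libraries, with the member in orange and the other models in blue and violet. In CTELG00000007793 and CTELG00000009118 the 64-cell bars are made of other models and the member is the largest part of all later bars but replicate 2 of the gastrula and of stage 4tt in CTELG00000009118. In CTELG00000023864 an earlier model is the largest part of all later bars but replicate 1 of stage 5, and in CTELG00000006130 the member makes up 74.1% of the stage 7 mean.

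Across the 35 genes the member held a variable part of the gene. Its median share of the gene was 31.7% at the gastrula, 43.6% in stage 4tt, 40.1% in stage 5 and 36.5% in stage 7, with a range from 3.49% to 100% over the 4 stages. The member was the most abundant model of its gene in 14 genes at the gastrula, 14 in stage 4tt, 15 in stage 5 and 15 in stage 7. It was so at all 4 stages in 9 genes, at 1 to 3 stages in 10 and at none in 16. Reads compatible with more than 1 model were split between those models by the quantification, so a value of 0 for one model of a detected gene is an estimate. How much of these shares rests on that division was not tested.

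The later course was also counted by kind of gene. Among the 36 that were the only model of their gene, 8 were higher and 15 lower at stage 7 than at the gastrula, against backgrounds of 14.1% and 22% of features of such genes at 50 or more. Among the 35 with another model on at the 64-cell stage, 8 were higher and 2 lower, against 13.3% and 16.5% of features of genes with several models. The 2 kinds also differed in level at the gastrula. Of the 14 members with a gastrula mean of at least 1000, 12 were only models, and 13 of the 14 fell. The median in the 2 gastrula libraries was 285 and 315 for the only models, and 187 and 216 for those with an earlier model. The difference between both kinds was not tested, nor was the part that the starting level played in it. The 15 falls were 14 to 16 in the alternative fits run for these counts, which were added after seeing the data, and the 2 falls were 2 to 4. A change at any step passed the F-test in 25 of the 36 (69.4%) and in 12 of the 35 (34.3%), against 56.1% and 44.6% of the same backgrounds. By single step, the only models had 8 rises and 5 falls at stage 4tt, against 10.8% and 10% of their background, and 1 rise and 9 falls between stages 5 and 7, against 3.19% and 3.84%. Those with an earlier model had 5 rises and 0 falls by limma at stage 4tt, against 7.97% and 9.41%, and 1 rise and 1 fall between stages 5 and 7, against 2.49% and 1.38%. Before adjustment, 9 were higher and 0 lower at stage 4tt, against 9.64% and 11.2%. The median standard error of a fold change was 0.47 for these 35 and 0.28 for their background. For the 36 only models it was 0.39, against 0.24. A larger standard error makes a call harder to reach, so a share below its background is not read as less change.

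**Figure D5:**
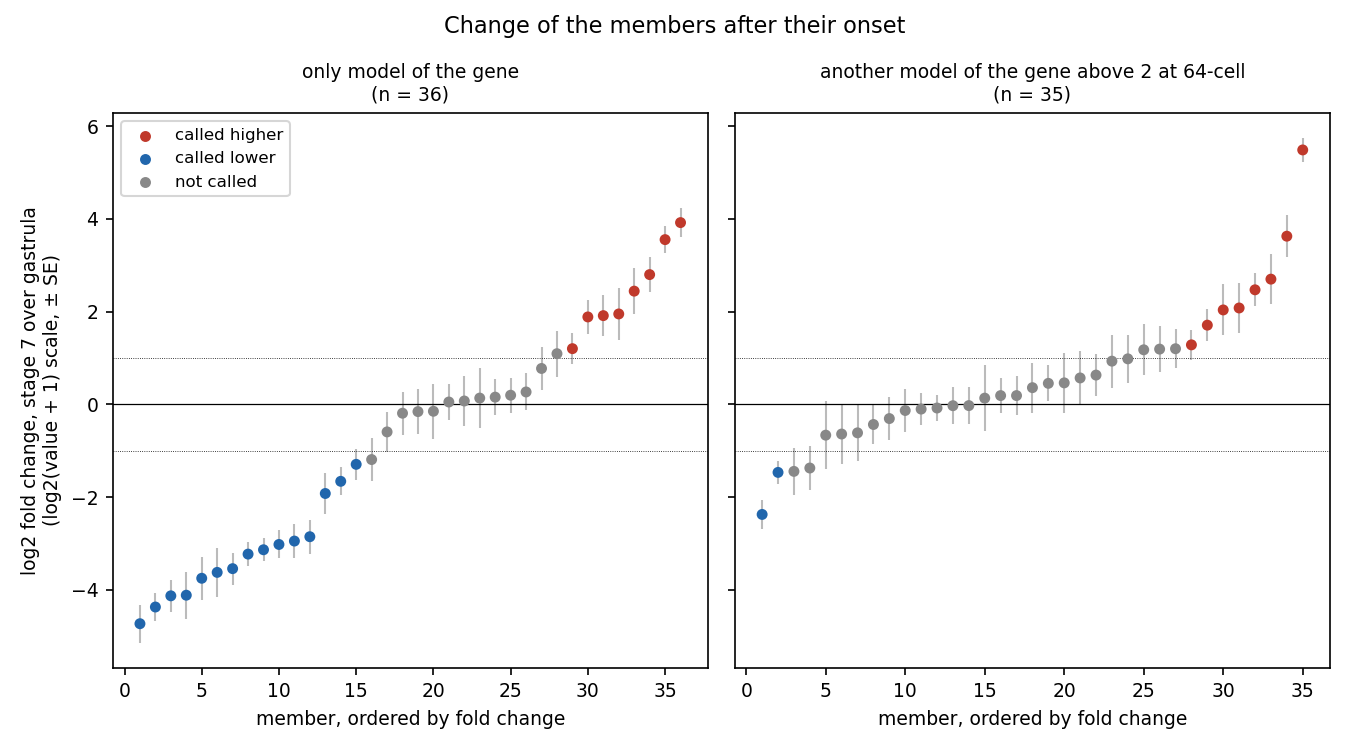
Log2 fold change of stage 7 over the gastrula with its standard error for the members that are the only model of their gene (left, n = 36) and for those with another model above 2 at the 64-cell stage (right, n = 35), each ordered by size. Red points were called higher (8 on each side), blue points lower (15 on the left and 2 on the right) and grey points were not called.

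Replicates of the members lay further apart than those of other features. The median size of the log2 difference between the 2 libraries of a stage was 0.46 at the gastrula, 0.41 at stages 4tt and 5 and 0.40 at stage 7, beside 0.23, 0.30, 0.28 and 0.20 over the features at 50 or more. At the gastrula it was 0.38 for the 36 only models and 0.75 for the 35 with an earlier model, and 1 and 8 of these differed by more than 2-fold between replicates. Levels differed as well, since the mean over the later libraries had a median of 404 for the members and 820 for the features at 50 or more. The part that read depth and the division of reads among models played in the spread was not tested.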

How the data were processed

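Whole *C. teleta* embryos and larvae were profiled by strand-specific mRNA sequencing, with 2 libraries at each of 5 stages. The authors trimmed reads, quantified them on re-annotated transcript models by pseudo-alignment with kallisto 0.46.2 and normalized the counts with DESeq2 1.30.1. The deposited signal is thus a normalized read count per transcript model, not a whole read count, and no count test was run. All 10 value columns were matched to samples by name, and 0 were left over. The growth text of the labels names another species, *Owenia fusiformis*.

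Values were tested on the log2(value + 1) scale with limma 3.58.1 (trend, R 4.3.3) over all 10 libraries with stage as the only term, for the 35526 features above 2 in at least 2 libraries, and the procedure was tested on simulated data. Calls needed an absolute log2 fold change above 1 together with a Benjamini-Hochberg adjusted p under 0.05 over all features tested. Another model of a gene was one with the same identifier before the suffix. The fold change on this scale understates changes of low features.

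The members, the lists and the tests were chosen with earlier results of these data known. Members named by rule were the 2 that rose most and the 2 that fell most between gastrula and stage 7 among called members without overlapping libraries, and the 2 with the smallest coefficient of variation after the 64-cell stage. Other members were named after their values were seen. Alternatives covered scaling, pseudocount, filter, sample weights, replicate block, fold threshold, membership and each library left out. Pathway lists could not be applied, since no identifier matched the gene table.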

Additional observations from a re-analysis of the deposited data

How the results depend on the processing

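Of 126 values recomputed with all libraries kept, 110 stayed in the same class as the reported value, as did 97 of 110 with 1 library left out and 125 of 126 fold changes of named members. No member called in the reported fit was called in the opposite direction in the 8 other fits to all features or in the 10 with 1 library left out. With a minimum log2 fold change of 2, stage 4tt against the gastrula had 8 members higher and 1 lower, stage 7 against stage 5 had 1 higher and 6 lower, and stage 7 against the gastrula had 10 higher. A fit to only the stages compared gave 8 members lower at stage 4tt than at the gastrula. With a pseudocount of 5, and without the 64-cell libraries, 1 member was lower at stage 5 than at stage 4tt. In these fits and with a filter above 5, 4 members with an earlier model were lower at stage 7 than at the gastrula, an alternative added after seeing the data. With 1 library left out, members lower at stage 4tt than at the gastrula numbered 1 to 6, members higher at stage 7 than at stage 5 numbered 0 to 2 and members lower numbered 1 to 12, and members higher at stage 7 than at the gastrula numbered 11 to 18. The log2 fold change of CTELG00000009384.1, -0.08 between stage 7 and the gastrula, was -0.36 to 0.20 with 1 library left out and changed sign without replicate 2 of the gastrula. In each of these cases the cause was not tested. With only the 58 members at 0 in both 64-cell libraries, the share of a library was 0 in the 64-cell embryo, 0.0799% in the gastrula, 0.0918% in stage 4tt, 0.0811% in stage 5 and 0.0771% in stage 7, since fewer members were summed. Removing the limit of 200 members changed nothing, and the 100 members with the largest minimum gave no value, since there were 73.

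Replicate numbers were not shown to pair the samples. Correlations of replicate differences over all features lay between -0.01 and 0.11 for 9 of 10 stage pairs and were 0.22 for stages 5 and 4tt. Over the 73 members they were 0.49 for stages 5 and 4tt and -0.26 for stages 7 and 5. The replicate block gave 16 members higher and 6 lower at stage 4tt than at the gastrula, 2 higher and 10 lower at stage 7 than at stage 5, and 18 higher and 18 lower at stage 7 than at the gastrula. Depth in whole reads is not known from normalized values, so no counting interval is given for the values at 0.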

Other observations

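Membership was sensitive to the limit at the 64-cell stage. With the same minimum of 50 in all later libraries, 58 features met a limit of 0, 69 a limit of 1, 73 a limit of 2, 145 a limit of 5 and 266 a limit of 10.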
